A study of Mus musculus with 17 samples.

Results

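The genes described here are the 9 receptor genes through which GDNF family ligands and fibroblast growth factors (FGFs) act: the co-receptor genes Gfra1, Gfra2, Gfra3 and Gfra4, the kinase gene Ret, and the FGF receptor genes Fgfr1, Fgfr2, Fgfr3 and Fgfr4. They were chosen by name as the receptors of these ligands, with earlier results of these data known, and are 9 of the 24013 rows of the count table. RNA was sequenced from cells sorted from mouse testes, all from Tert-Tomato/+ animals on a B6/J X B6/N mixed background, so every group, controls included, carries 1 Tert allele with a red fluorescent reporter. P6gonocyte (n = 4) is TERT+ OCT4-GFP+ gonocytes of day 6 neonates. The 3 adult groups are TERT-High cells: KITpos (n = 5) was sorted as Kit+, GFRA1pos (n = 4) as Kit- GFRa1+, and GFRA1neg (n = 4) as Kit- GFRa1-. P6gonocyte thus differs from each adult group in age and in the sort gates at once, and these cannot be told apart. The labels do not say whether replicates came from separate animals, so p-values measure the spread between these libraries, which may be technical.

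GDNF is made by somatic cells of the testis, among them Sertoli cells. It binds GFRA1, a co-receptor anchored to the outer cell membrane by a lipid, and the complex activates the receptor tyrosine kinase RET; GFRA2, GFRA3 and GFRA4 are the preferred co-receptors of neurturin, artemin and persephin, and also work through RET. FGF receptors are receptor tyrosine kinases that bind FGFs together with heparan sulfate, and both families signal through the MAPK and PI3K pathways. GDNF and FGF2 are added to cultures of mouse spermatogonial stem cells to maintain them, whereas KIT marks spermatogonia that have begun to differentiate.

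Libraries held 5178352 to 12641907 counts. The P6gonocyte libraries had 6479216 to 8468203 counts and the KITpos libraries 5178352 to 8300165, against 10918223 to 11567191 in GFRA1pos and 9965437 to 12641907 in GFRA1neg, so low genes are measured less precisely in the first 2 groups. Levels are given as CPM, read counts relative to the library size after TMM scaling. Kit followed the labels of the sort: it averaged 353 ± 76.3 CPM in KITpos (SD, n = 5), against 17.6 ± 3.75 CPM in GFRA1pos and 27.6 ± 14.7 CPM in GFRA1neg (SD, n = 4 each). Kit averaged 188 ± 29.4 CPM in P6gonocyte (SD, n = 4), whose labels name no Kit gate. Pou5f1, the gene of OCT4, was at 23, 5.53, 26.3 and 24.1 CPM in P6gonocyte, 0 to 1.54 CPM in KITpos, 1.85 to 4.31 CPM in GFRA1pos and 3.12 to 5.46 CPM in GFRA1neg. P6gonocyte replicate 2 thus stood apart from its group, close to the highest GFRA1neg library. Tert, part of every sort, averaged 7.21 CPM in P6gonocyte, 7.54 in KITpos, 7.25 in GFRA1pos and 11.3 in GFRA1neg. The summed level of 8 germ line markers was 2970 to 3330 CPM in P6gonocyte, 2010 to 2170 CPM in KITpos, 2350 to 2870 CPM in GFRA1pos and 3120 to 4270 CPM in GFRA1neg. KITpos lay below every other library in this sum, and its part in the KITpos differences was not tested. Summed Sertoli markers (11 genes, none without counts) were 72.6 to 237 CPM in P6gonocyte, 15.9 to 53.6 CPM in KITpos, 17.1 to 20.2 CPM in GFRA1pos and 23.6 to 34.5 CPM in GFRA1neg, and their part in the P6gonocyte differences was not tested. The 237 CPM belonged to P6gonocyte replicate 2. Without that library no receptor difference of P6gonocyte changed its direction or its side of the threshold. Summed peritubular myoid and fibroblast markers (9 genes) were 46.5 to 61.7 CPM in P6gonocyte and 14.8 to 34.1 CPM in KITpos. They were 25.2 to 35.2 CPM in GFRA1pos and 32.0 to 36.7 CPM in GFRA1neg. Not every marker followed the sum: Tagln averaged 2.66 CPM in P6gonocyte against 6.38 in KITpos. Summed Schwann and glia markers (4 genes) were 18.4 to 23.1 CPM in GFRA1neg and at most 14.6 CPM in any other library. The part of either marker set in the receptor differences was not tested. In sorted bulk samples, fewer cells that express a gene and less RNA per cell cannot be told apart.

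The 2 promoters below belong to Gfra1 and Fgfr3. These are the receptor genes with a listed promoter that were called in every comparison with KITpos, in opposite directions. Fgfr2, also listed, was called lower in KITpos than in GFRA1neg and P6gonocyte but not than in GFRA1pos. Each run holds 250 bases before to 50 after an annotated start, from RefSeq on GRCm38.p6. Capitals mark the matches to an ETS core (CCGGAA) or a GC box (GGGCGG), searched on both strands. The Gfra1 window is chr19:58455349-58455648, minus strand, and the Fgfr3 window is chr5:33721474-33721773, plus strand, the first of 2 listed for that gene.
Gfra1: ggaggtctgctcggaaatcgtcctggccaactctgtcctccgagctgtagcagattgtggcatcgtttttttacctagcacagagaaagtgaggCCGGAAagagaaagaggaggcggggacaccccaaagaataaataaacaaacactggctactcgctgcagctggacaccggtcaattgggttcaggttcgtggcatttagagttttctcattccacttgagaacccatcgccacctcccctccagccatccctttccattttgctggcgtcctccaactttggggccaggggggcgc
Fgfr3: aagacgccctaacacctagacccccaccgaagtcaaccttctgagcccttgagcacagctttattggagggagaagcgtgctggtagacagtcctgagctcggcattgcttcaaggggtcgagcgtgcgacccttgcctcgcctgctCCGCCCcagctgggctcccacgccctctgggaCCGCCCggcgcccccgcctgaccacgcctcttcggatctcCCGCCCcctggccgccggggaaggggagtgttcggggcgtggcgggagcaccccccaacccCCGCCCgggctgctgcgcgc
The Gfra1 window holds 1 ETS core and 0 GC boxes, and the Fgfr3 window holds 0 ETS cores and 4 GC boxes. Among all 32851 listed promoter windows of this length, 14.9% hold the ETS core and 35.7% hold the GC box. A TATA box (TATAAA, in 13.6% of all windows) has 0 matches in either window, and an E-box (CANNTG, in 72.3%) has 3 matches in the Gfra1 window and 1 in the Fgfr3 window. E-boxes were counted apart from the other motifs and are not capitalised. The RefSeq table also lists Gfra4, Fgfr2 and Fgfr4, and the motif counts do not follow the directions of the genes. The Fgfr2 window holds 0 ETS cores and 0 GC boxes, as does each Gfra4 window. The Fgfr4 window holds 1 ETS core and 4 GC boxes, and the second Fgfr3 window 0 ETS cores and 2 GC boxes. These matches describe letters and are not binding sites measured here.

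Per kilobase (kb) of exon, Gfra1 had the highest mean level of the 9 genes in P6gonocyte and GFRA1pos, Ret in GFRA1neg, and Fgfr3 in KITpos. The lead in KITpos was within the spread, with Fgfr3 at 4.19 ± 0.73 CPM per kb and Gfra4 at 4.08 ± 2.06 (SD, n = 5). In P6gonocyte it was also close, with Gfra1 at 31.2 ± 3.93 and Ret at 28.4 ± 1.37 (SD, n = 4). Per kb, Gfra1 averaged 31.2 CPM in P6gonocyte, 1.02 in KITpos, 84.0 in GFRA1pos and 4.92 in GFRA1neg. Ret averaged 28.4 CPM per kb in P6gonocyte, 0.949 in KITpos, 58.0 in GFRA1pos and 21.9 in GFRA1neg. Among 58 genes of receptor tyrosine kinases, Ret ranked 2nd in P6gonocyte after Kit, 15th in KITpos, 1st in GFRA1pos, and 2nd in GFRA1neg after Igf1r, by mean CPM per kb.

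**Figure D1:**
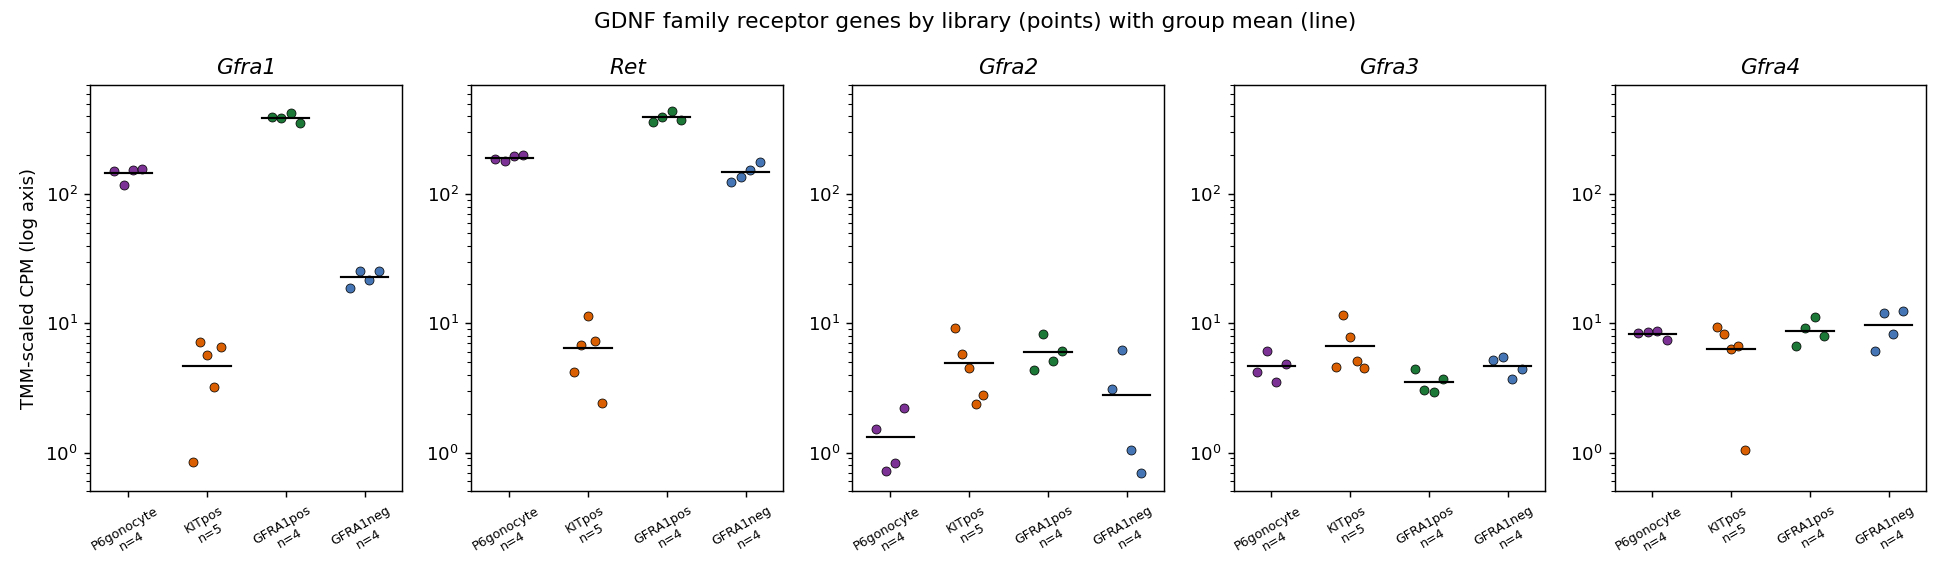
TMM-scaled CPM on a log axis of the 5 GDNF family receptor genes, 1 point per library and a line at each group mean. Gfra1 and Ret lie at 355 to 438 CPM in GFRA1pos and at 0.84 to 11.3 CPM in KITpos, while Gfra2, Gfra3 and Gfra4 stay at 12.4 CPM or less in every library.

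Gfra1, the co-receptor of GDNF, was at 151, 118, 154 and 157 CPM in the P6gonocyte libraries. The KITpos libraries had 0.84, 7.19, 5.71, 3.24 and 6.58 CPM of Gfra1. It was at 394, 385, 425 and 355 CPM in GFRA1pos, against 18.6, 25.6, 21.7 and 25.4 CPM in GFRA1neg. No group overlapped another, and the order of the groups was GFRA1pos, P6gonocyte, GFRA1neg, KITpos. The GFRA1pos to GFRA1neg difference, a log2 fold change of 4.09 ± 0.30 (SE; adjusted p = 5.7e-08, edgeR quasi-likelihood test with Benjamini-Hochberg adjustment over 15451 genes), is what the GFRA1 gate selects and serves as a check of the sort. Gfra1 transcripts were nevertheless counted in every GFRA1neg library, 963 counts over the 4. P6gonocyte cells were not sorted by GFRA1, and Gfra1 was higher there than in GFRA1neg by 2.66 ± 0.28 log2 (adjusted p = 1.7e-06) and lower than in GFRA1pos, with a log2 fold change of -1.43 ± 0.26 (adjusted p = 0.00043). Both adult groups in these differences were gated on GFRA1, so the sizes depend on the gate. Without P6gonocyte replicate 2 they were 2.75 (adjusted p = 3.9e-06) and -1.34 (adjusted p = 0.002). In KITpos Gfra1 was 4.84-fold lower than in GFRA1neg, with a log2 fold change of -2.26 ± 0.29 (adjusted p = 3.9e-06), although the GFRA1neg cells were themselves gated on low GFRA1.

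Ret, the kinase shared by all 4 co-receptors, was at 187, 182, 197 and 202 CPM in P6gonocyte. The KITpos libraries had 4.2, 6.84, 11.3, 7.33 and 2.43 CPM of Ret. It was at 361, 392, 438 and 378 CPM in GFRA1pos, against 125, 136, 154 and 177 CPM in GFRA1neg. The 4 groups did not overlap: GFRA1pos was highest, then P6gonocyte, then GFRA1neg, and KITpos was far below the others. Ret was not a gated gene, and in GFRA1pos it was 2.65-fold higher than in GFRA1neg, with a log2 difference of 1.41 ± 0.23 (adjusted p = 0.00028 by edgeR). In KITpos it was 23.1-fold lower than in GFRA1neg, at -4.51 ± 0.25 log2 (adjusted p = 1.2e-10), and 61.2-fold lower than in GFRA1pos, at -5.91 ± 0.26 log2 (adjusted p = 6.6e-12). In P6gonocyte Ret was lower than in GFRA1pos by a log2 fold change of -1.03 ± 0.23 (adjusted p = 0.0016), or -1.0 without P6gonocyte replicate 2 (adjusted p = 0.0053). The neighbours P6gonocyte and GFRA1neg differed by 0.38 ± 0.22 log2, which did not pass the test (adjusted p = 0.19), although their libraries did not overlap. Over the alternatives tried, that adjusted p ran from 0.01 to 0.35, and the difference passed the test with limma voom, with only these 2 groups in the fit and with the replicate number as a block.

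By group median, endothelial and macrophage markers were also highest in GFRA1pos and lowest in KITpos. The summed level of 5 endothelial markers was 13.7 to 16.7 CPM in P6gonocyte, 4.17 to 6.06 CPM in KITpos, 19.8 to 27.1 CPM in GFRA1pos and 13.6 to 18.3 CPM in GFRA1neg, and 1 of the 5, Emcn, had 0 counts in GFRA1pos. The summed level of 7 macrophage markers was 8.59 to 12.4 CPM in P6gonocyte, 4.16 to 9.94 CPM in KITpos, 17.4 to 22.0 CPM in GFRA1pos and 13.2 to 15.1 CPM in GFRA1neg, and 2 of the 7 had 0 counts in P6gonocyte and 2 in GFRA1neg. In KITpos 4 of 4 tested endothelial markers and 2 of 3 tested macrophage markers were lower than in GFRA1pos, where 23.7% of all genes were lower. In GFRA1pos 2 of the 4 and 1 of the 3 were higher than in GFRA1neg, where 7.3% of all genes were higher. Single markers did not all follow the sums. Kdr averaged 6.41 CPM in GFRA1pos against 1.0 in GFRA1neg, and Tek 7.6 against 3.15. Pecam1, however, averaged 2.76 against 3.96, and Cdh5 7.95 against 7.58. Mrc1 averaged 9.03 CPM in GFRA1pos against 1.07 in GFRA1neg, while Cd68 averaged 7.51 against 10.5. The part of these markers in the Gfra1 and Ret differences was not tested.

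Between the adult Kit- groups, Gfra1 was thus 17.1-fold higher in GFRA1pos than in GFRA1neg while Ret was 2.65-fold higher, and the ratio of the counts of the 2 genes was set beside this (0.5 added to each count). The Gfra1 to Ret ratio was 0.805, 0.648, 0.783 and 0.775 in P6gonocyte. It was 1.09, 0.983, 0.971 and 0.939 in GFRA1pos, against 0.149, 0.189, 0.141 and 0.144 in GFRA1neg. The GFRA1neg libraries lay below those of every other group. Since GFRA1pos and GFRA1neg were gated on GFRA1, every difference of this ratio from either group depends on the gate, and these differences are given as descriptions. The log2 ratio in P6gonocyte differed by 2.28 from that of GFRA1neg and by -0.41 from that of GFRA1pos, and without P6gonocyte replicate 2 by 2.35 and -0.34. The difference of GFRA1pos from GFRA1neg was 2.69. In KITpos, with 169 Gfra1 counts and 233 Ret counts in all, the ratio scattered from 0.213 to 2.66, wider than in any other group. The KITpos log2 ratio differed by 2.12 from that of GFRA1neg and by -0.57 from that of GFRA1pos. P6gonocyte and KITpos, neither gated on GFRA1 per the labels, differed by 0.16 (adjusted p = 0.79 over 12 ratio tests, 2-sided exact permutation test, n = 4 and 5).

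**Figure D2:**
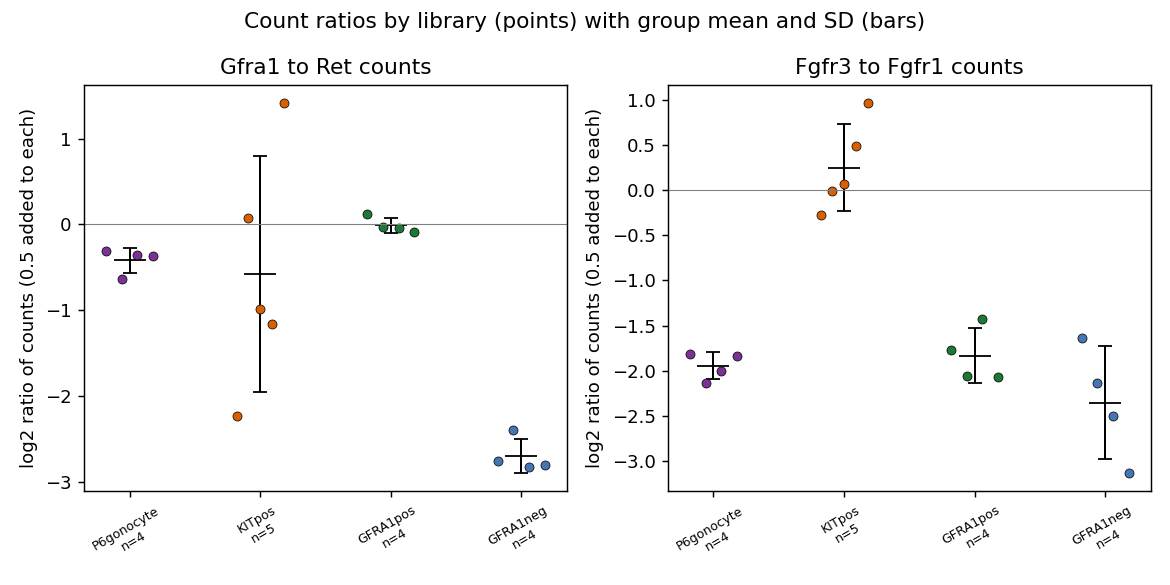
Log2 ratios of counts, Gfra1 to Ret on the left and Fgfr3 to Fgfr1 on the right, 1 point per library with the group mean and SD. The 4 GFRA1neg libraries are lowest in the first ratio, at 0.141 to 0.189 before the log, and the 5 KITpos libraries are highest in the second, at 0.828 to 1.94.

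Gfra2, the neurturin co-receptor, was a low gene whose level changed from library to library. It was at 1.53, 0.721, 0.828 and 2.2 CPM in P6gonocyte and at 9.24, 5.8, 4.54, 2.39 and 2.77 CPM in KITpos. It was at 4.35, 8.3, 5.13 and 6.08 CPM in GFRA1pos, against 3.1, 6.24, 1.04 and 0.691 CPM in GFRA1neg. The P6gonocyte libraries lay below all GFRA1pos and KITpos libraries, while GFRA1pos, KITpos and GFRA1neg overlapped. In P6gonocyte Gfra2 was lower than in GFRA1pos, at -2.18 ± 0.60 log2 (adjusted p = 0.0079 by edgeR), and lower than in KITpos, at -1.92 ± 0.59 (adjusted p = 0.011). Without P6gonocyte replicate 2 these were -1.98 (adjusted p = 0.028) and -1.72 (adjusted p = 0.037). The GFRA1pos to GFRA1neg difference was 1.08 ± 0.56 log2 and did not pass (adjusted p = 0.23). Without GFRA1neg replicate 2 that difference was 1.87 with an adjusted p of 0.036, and the KITpos to GFRA1neg difference was 1.6 with an adjusted p of 0.025, against 0.82 and an adjusted p of 0.23 with it. Over all alternatives the adjusted p ran from 0.036 to 0.44 for the first and from 0.025 to 0.52 for the second.

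Spermatid transcripts also varied between libraries. The summed level of 6 spermatid markers (among them the protamine genes Prm1 and Prm2) was 6.61 to 8.75 CPM in P6gonocyte, with 1 of the 6 at 0 counts. It was 955, 487, 248, 317 and 590 CPM in KITpos. It was 57.2, 1330, 205 and 634 CPM in GFRA1pos, against 436, 1090, 243 and 270 CPM in GFRA1neg. In each adult group, the library with the highest spermatid sum was also the one with the highest Gfra2: KITpos replicate 1, GFRA1pos replicate 2 and GFRA1neg replicate 2. The order did not hold throughout: KITpos replicate 5, with the second highest spermatid sum of its group at 590 CPM, had the second lowest Gfra2, 2.77 CPM. Without the 4 libraries with the highest spermatid sums before scaling, an alternative chosen after seeing the data, Gfra2 in P6gonocyte remained lower than in GFRA1pos, at -1.98 log2 (adjusted p = 0.0085 by edgeR), and than in KITpos, at -1.71 (adjusted p = 0.017). The libraries kept in that fit still held 57.2, 205 and 634 CPM of spermatid markers in GFRA1pos and 487, 248 and 317 CPM in KITpos. P6gonocyte held at most 8.75 CPM, so that fit cannot separate spermatid RNA from the group difference. The part of spermatid RNA in these Gfra2 levels was not tested.

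**Figure D3:**
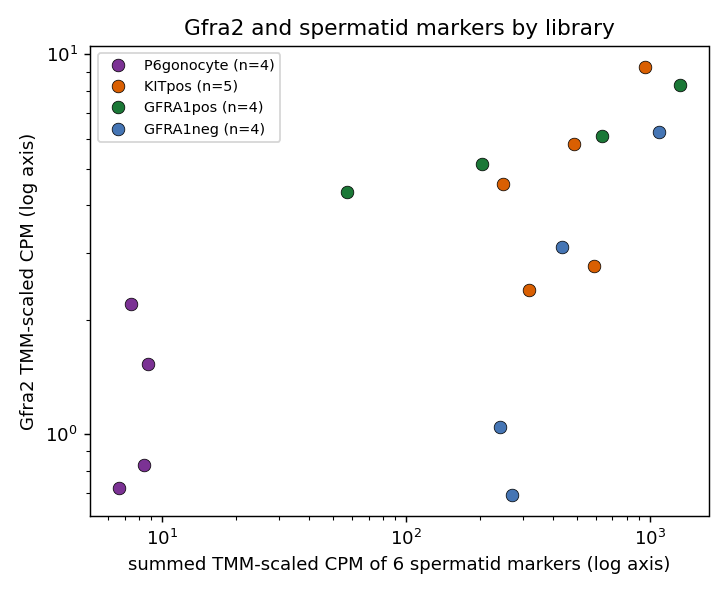
Gfra2 CPM against the summed CPM of 6 spermatid markers, both on log axes, 1 point per library coloured by group. The 4 P6gonocyte libraries lie at 6.61 to 8.75 CPM of spermatid markers, and the highest Gfra2 point of each adult group is its rightmost.

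Gfra3 and Gfra4, co-receptors of artemin and persephin, were low in all groups. Gfra3 was at 3.52 to 6.13 CPM in P6gonocyte, 4.5 to 11.6 CPM in KITpos, 2.92 to 4.44 CPM in GFRA1pos and 3.7 to 5.44 CPM in GFRA1neg. The single Gfra3 difference that passed the test was KITpos over GFRA1pos, at 0.94 ± 0.32 log2 (edgeR adjusted p = 0.019), with no overlap of the libraries. Leaving out KITpos replicate 2, the highest library, moved it to 0.64 with an adjusted p of 0.078. The call was also lost without GFRA1pos replicate 2 (adjusted p = 0.053) or 3 (0.059) and with only the 2 groups in the fit (0.057), and over all alternatives the adjusted p ran from 0.01 to 0.078. Gfra4 was at 7.42 to 8.69 CPM in P6gonocyte, 1.04 to 9.38 CPM in KITpos, 6.65 to 11.2 CPM in GFRA1pos and 6.11 to 12.4 CPM in GFRA1neg. All 4 ranges of Gfra4 overlapped, and no Gfra4 difference passed the test in any of the 6 comparisons. Per kb, the mean of Gfra4 stood above those of Gfra2 and Gfra3 in every group, at 4.08 to 6.26 CPM per kb, against 0.373 to 1.69 for Gfra2 and 1.76 to 3.37 for Gfra3. In KITpos its lead over Gfra3 was within the spread, at 4.08 ± 2.06 against 3.37 ± 1.52 (SD, n = 5).

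Fgfr1, the most abundant FGF receptor gene per kb in P6gonocyte, GFRA1pos and GFRA1neg, was lower in KITpos than in each of these groups. It was at 26.4, 37, 35.4 and 24.3 CPM in P6gonocyte and at 15.4, 20.5, 18.9, 14.2 and 9.87 CPM in KITpos. It was at 38.1, 37.1, 38.3 and 36.7 CPM in GFRA1pos, against 29.3, 39.7, 41.5 and 42 CPM in GFRA1neg. All KITpos libraries lay below every other library, and the other 3 groups overlapped. In KITpos the log2 fold change was -1.26 ± 0.19 against GFRA1neg (edgeR adjusted p = 2e-05) and -1.24 ± 0.19 against GFRA1pos (adjusted p = 2.3e-05). GFRA1pos and GFRA1neg differed by -0.02 ± 0.19 log2 (adjusted p = 0.96), and their libraries overlapped.

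Fgfr3 went the other way. It was at 7.5, 8.42, 8.8 and 6.73 CPM in P6gonocyte and at 12.7, 20.4, 19.8, 20 and 19.2 CPM in KITpos. It was at 11.1, 8.88, 14.2 and 8.7 CPM in GFRA1pos, against 9.41, 8.96, 7.28 and 4.74 CPM in GFRA1neg. Apart from replicate 1, the KITpos libraries lay above every other library. Fgfr3 was higher in KITpos than in GFRA1neg by 1.28 ± 0.23 log2 (edgeR adjusted p = 0.00019) and than in GFRA1pos by 0.78 ± 0.23 (adjusted p = 0.0084). In P6gonocyte it was lower than in KITpos, at -1.23 ± 0.24 log2 (adjusted p = 0.00036), or -1.25 without P6gonocyte replicate 2 (adjusted p = 0.0011). The other 3 comparisons of Fgfr3 did not pass, and those groups overlapped. Of 6 Leydig cell markers tested, 5 were also higher in KITpos than in GFRA1neg, where 22.1% of all genes were higher. All 7 markers summed to 21.8 to 98.9 CPM in KITpos, against 13.9 to 25.4 CPM in GFRA1pos and 9.77 to 26.5 CPM in GFRA1neg. They were at 14.3 to 21.5 CPM in P6gonocyte, where 2 of the 7 had 0 counts. The KITpos library with the highest Leydig sum, replicate 1 at 98.9 CPM, had the lowest Fgfr3 of its group. Replicate 5, with the next highest Leydig sum at 75.2 CPM, had 19.2 CPM of Fgfr3. The part of Leydig cells in the Fgfr3 result was not tested.

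The make-up of FGF receptor transcripts differed between KITpos and the other groups. The 4 FGF receptor genes summed to 8.66 ± 1.61 CPM per kb in P6gonocyte, 7.79 ± 1.43 in KITpos, 10.6 ± 0.767 in GFRA1pos and 9.84 ± 1.06 in GFRA1neg (SD). Fgfr1 made up 68.0% ± 4.31 of that sum in P6gonocyte, 38.7% ± 6.89 in KITpos, 68.4% ± 3.53 in GFRA1pos and 74.2% ± 7.40 in GFRA1neg (SD). Fgfr3 made up 20.9% ± 1.93 in P6gonocyte, 54.3% ± 9.26 in KITpos, 22.9% ± 3.80 in GFRA1pos and 17.8% ± 5.95 in GFRA1neg (SD). In KITpos, Fgfr3 held 45.9% to 69.8% and Fgfr1 30.2% to 46.8%, and neither range reached that of another group. The Fgfr3 to Fgfr1 count ratio had a geometric mean of 1.19 in KITpos, against 0.281 in GFRA1pos and 0.196 in GFRA1neg, and of 0.26 in P6gonocyte. In KITpos the log2 ratio was higher by 2.08 than in GFRA1pos and by 2.60 than in GFRA1neg, and in P6gonocyte it differed from KITpos by -2.19, or -2.13 without P6gonocyte replicate 2. With all libraries, each of these differences had an adjusted p of 0.032 over the 12 ratio tests (2-sided exact permutation tests, n = 5 and 4, smallest unadjusted p possible 0.0079). The difference without P6gonocyte replicate 2 had an adjusted p of 0.049 by the same test. The call against GFRA1neg had an adjusted p of 0.057 (exact permutation test) without GFRA1neg replicate 2, 3 or 4. The differences were then 2.67, 2.55 and 2.34 log2. With fewer libraries the smallest p possible is larger, so these p-values do not show a weaker difference. Among GFRA1pos, GFRA1neg and P6gonocyte no difference of this ratio passed, with sizes of -0.11 to 0.52 log2. Without GFRA1neg replicate 1, GFRA1pos and P6gonocyte had higher ratios than GFRA1neg, by 0.76 and 0.65 log2, each at an adjusted p of 0.043 (exact permutation tests). Among the 58 receptor kinase genes, Fgfr1 ranked 8th in P6gonocyte, 11th in KITpos, 8th in GFRA1pos and 7th in GFRA1neg by CPM per kb. Fgfr3 ranked 19th in P6gonocyte, 9th in KITpos, 18th in GFRA1pos and 17th in GFRA1neg.

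**Figure D4:**
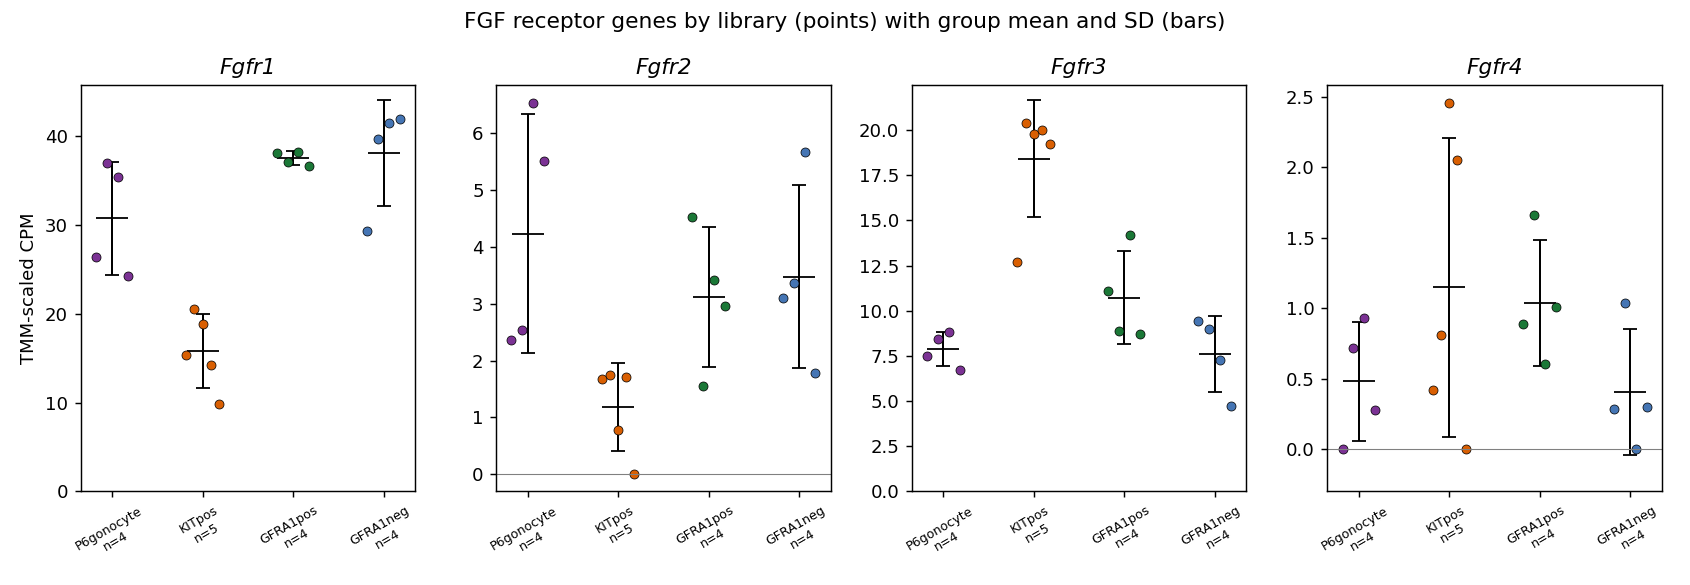
TMM-scaled CPM of the 4 FGF receptor genes on linear axes that differ between panels, 1 point per library with the group mean and SD. KITpos is lowest for Fgfr1, at 9.87 to 20.5 CPM, and highest for Fgfr3, at 12.7 to 20.4 CPM, while Fgfr4 stays at 2.46 CPM or less.

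Fgfr2 and Fgfr4 were near the limit of counting. Fgfr2 was at 2.36, 2.53, 6.52 and 5.5 CPM in P6gonocyte and at 1.68, 1.74, 0.778, 1.71 and 0 CPM in KITpos. It was at 4.52, 1.56, 3.42 and 2.96 CPM in GFRA1pos, against 3.1, 3.36, 5.66 and 1.78 CPM in GFRA1neg. KITpos lay just below P6gonocyte and GFRA1neg and overlapped GFRA1pos. In KITpos the log2 fold change of Fgfr2 was -1.52 ± 0.57 against GFRA1neg (edgeR adjusted p = 0.036), a call that was lost in 8 of the alternatives (range over all alternatives 0.012 to 0.13). These were the fit of only the 2 groups (0.064), the replicate block (0.074), the fit without the 4 libraries highest in spermatid markers (0.07), and those without GFRA1pos replicate 4 (0.053), KITpos replicate 3 (0.075) or GFRA1neg replicate 1, 2 or 3 (0.052, 0.052 and 0.13). Against GFRA1pos it was -1.37 and did not pass (adjusted p = 0.054, range 0.02 to 0.14), although DESeq2 and both other scalings called it. So did the edgeR fits without rows over 5% of counts (0.043), without GFRA1pos replicate 2 (0.036) and without KITpos replicate 2 (0.049). Fgfr2 was higher in P6gonocyte than in KITpos by 1.81 ± 0.57 log2 (adjusted p = 0.014), or 1.53 with an adjusted p of 0.057 without P6gonocyte replicate 3 and 2.00 with an adjusted p of 0.012 without replicate 2. Fgfr4 had 17 counts in all of P6gonocyte, 41 in KITpos, 45 in GFRA1pos and 19 in GFRA1neg, with 0 counts in P6gonocyte replicate 1, KITpos replicate 5 and GFRA1neg replicate 3. It was the 1 receptor gene that did not pass the count filter, and it was called in none of the alternative fits that tested it. A count of 0 over a whole group would allow up to 0.101 CPM in P6gonocyte, 0.087 in KITpos and 0.067 in GFRA1pos and in GFRA1neg, from 3 counts of the group total and for counting error only.

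Over the 8 receptor genes tested, 2 were called in GFRA1pos against GFRA1neg, both higher, where 14.1% of all 15451 genes tested were called (7.3% higher and 6.84% lower). In KITpos 1 was higher and 4 were lower than in GFRA1neg, with 45.1% of all genes called (22.1% higher and 23.0% lower). In KITpos 2 were higher and 3 lower than in GFRA1pos, with 48.6% called (24.9% higher and 23.7% lower). In P6gonocyte 0 were higher and 3 lower than in GFRA1pos, with 39.2% called (17.3% higher and 21.9% lower), and 0 were higher also at an unadjusted p under 0.05 and by DESeq2 and limma voom. Against GFRA1neg P6gonocyte had 1 higher and 0 lower, with 43.6% called (18.8% higher and 24.9% lower), and 0 were lower also at an unadjusted p under 0.05 and by DESeq2 and limma voom. Against KITpos it had 4 higher and 2 lower, with 49.1% called (21.8% higher and 27.3% lower). These comparisons share libraries. Gfra1 was 1 of the 2 calls in GFRA1pos against GFRA1neg, where the GFRA1 gate selects for it, so that call is a check of the sort. It was also the only receptor gene called in P6gonocyte against GFRA1neg, and it was called in every other comparison. For Gfra1, each comparison with GFRA1pos or GFRA1neg depends on the gate, so the counts above are given as a description. The 3 tested FGF receptor genes gave 0 calls in GFRA1pos against GFRA1neg, in P6gonocyte against GFRA1pos and in P6gonocyte against GFRA1neg, by edgeR also at an unadjusted p under 0.05 and by DESeq2 and limma voom.

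**Figure D5:**
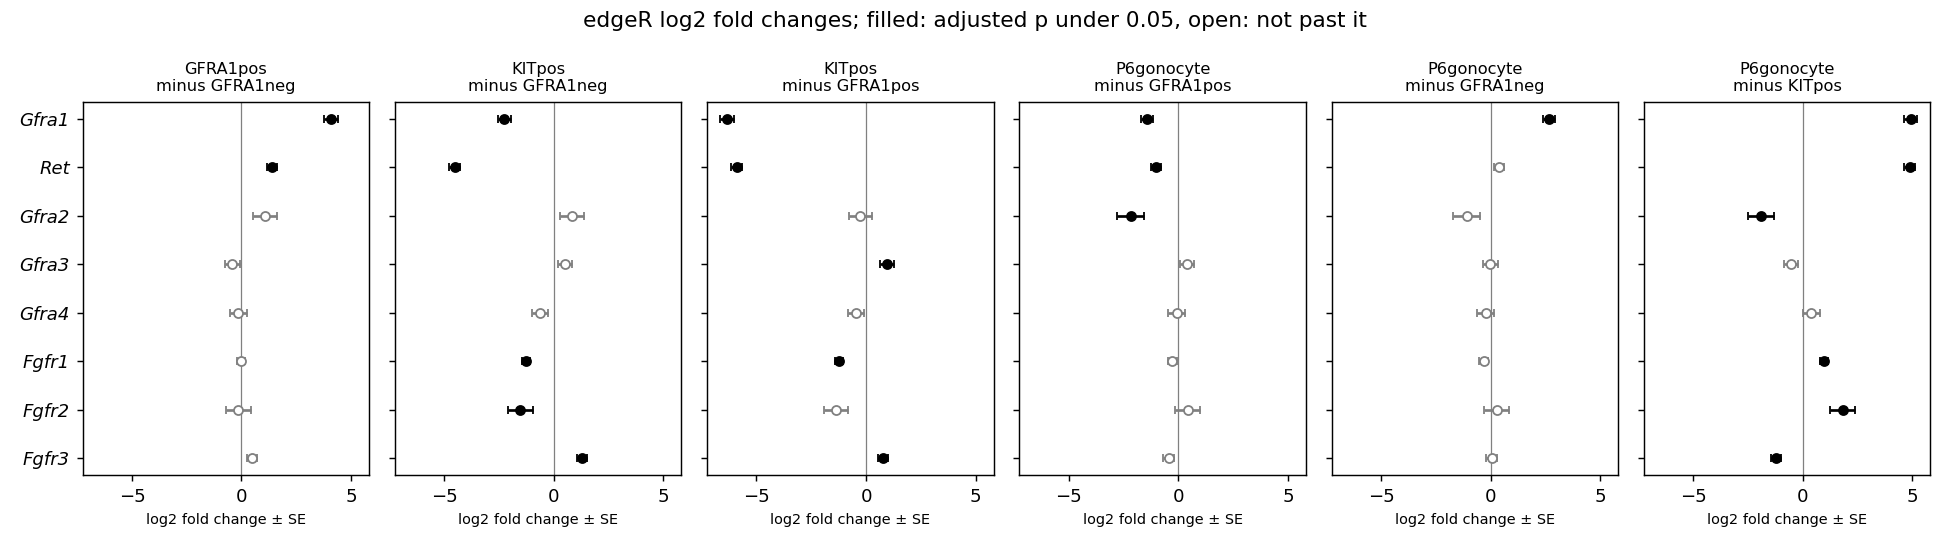
Log2 fold changes with their SE of the 8 receptor genes tested, 1 panel per comparison, filled where the edgeR adjusted p is under 0.05. Gfra1 and Ret span -6.35 to 4.93 log2, and Fgfr3 lies opposite to Fgfr1 in the panels that include KITpos.

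Few transcripts of the ligands were counted in these cells. Gdnf averaged 0.487 CPM in P6gonocyte, 0.448 in KITpos, 0.169 in GFRA1pos and 0.21 in GFRA1neg, and it did not pass the count filter. Fgf2 averaged 0.207 CPM in P6gonocyte, 0.424 in KITpos, 0.15 in GFRA1pos and 0.188 in GFRA1neg and did not pass it either. Of 22 FGF genes, 5 were tested. Fgf9, a secreted FGF, was at 4.08 ± 0.330 CPM in GFRA1pos, against 0.779 ± 0.136 CPM in GFRA1neg (SD, n = 4 each; 2.36 ± 0.57 log2, edgeR adjusted p = 0.008). Fgf11, an intracellular FGF homologous factor that does not act through these receptors, was at 24.0 ± 15.3 CPM in KITpos (SD, n = 5), against 1.21 ± 0.654 CPM in GFRA1neg (SD, n = 4; 4.28 ± 0.59 log2, adjusted p = 8.2e-06). Nrtn, which encodes neurturin, was at 2.38 ± 0.933 CPM in KITpos, against 0.116 ± 0.0828 CPM in GFRA1neg (4.17 ± 0.69 log2, adjusted p = 6.7e-05). It was at 1.04 to 3.24 CPM in KITpos and at most 0.507 CPM in every other library. Nrtn thus passed the count filter only through KITpos, the group where it is high, so its test is given as a description. In GFRA1neg it was near the limit of counting, at 0 to 0.188 CPM. Ncam1, an adhesion protein that can also bind GDNF with GFRA1, was at 11.2 ± 2.26 CPM in GFRA1pos, against 3.39 ± 1.36 CPM in GFRA1neg (1.73 ± 0.35 log2, adjusted p = 0.0024).

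Co-receptors and heparan sulfate genes, on which FGF binding depends, were called in both directions. Of 25 tested, 5 were higher and 7 lower in GFRA1pos than in GFRA1neg, with a median log2 fold change near 0 (median of all genes -0.04; 7.3% of all genes higher and 6.84% lower). Leaving out single libraries gave 3 to 6 higher and 3 to 8 lower. Without GFRA1neg replicate 1 there were 3 and 3, without GFRA1pos replicate 1, 2 or 3 there were 3, 3 and 4 lower, and without a count filter 4 were lower. In KITpos 6 were higher and 10 lower than in GFRA1neg (median -0.48, all genes 0.03; 22.1% of all genes higher and 23.0% lower), with 5 to 6 and 9 to 12 when single libraries were left out. Sdc4, a cell surface heparan sulfate proteoglycan, was at 41.7 ± 9.63 CPM in KITpos, against 935 ± 135 CPM in GFRA1neg (SD; -4.48 ± 0.16 log2, edgeR adjusted p = 7.6e-13). Hspg2, the basement membrane proteoglycan perlecan, was at 52.9 ± 11.1 CPM in GFRA1pos, against 186 ± 15.1 CPM in GFRA1neg (-1.82 ± 0.26 log2, adjusted p = 8.4e-05). Gpc3, a glypican, was at 10.6 ± 1.93 CPM in GFRA1pos, against 2.19 ± 0.912 CPM in GFRA1neg (2.27 ± 0.35 log2, adjusted p = 0.00018).

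Adaptors and kinases downstream of the receptors were called in both directions as well. Of 42 tested, 6 were higher and 8 lower in GFRA1pos than in GFRA1neg (median 0.04 log2, all genes -0.04; 7.3% of all genes higher and 6.84% lower). Leaving out single libraries gave 2 to 7 higher and 3 to 9 lower. There were 3 higher without GFRA1pos replicate 1 or any 1 of GFRA1neg replicates 1, 2 and 3, and 2 higher and 3 lower without GFRA1pos replicate 3. There were 5 lower without GFRA1pos replicate 2 or 4 and without the 4 libraries highest in spermatid markers. In KITpos 8 were higher and 13 lower than in GFRA1neg (median -0.19, all genes 0.03; 22.1% and 23.0% of all genes), with 6 to 11 and 13 to 15 when single libraries were left out; 5 were higher with only the 2 groups or without the 4 libraries highest in spermatid markers. Fyn, a Src family kinase, was at 95.7 ± 9.03 CPM in GFRA1pos, against 38.9 ± 5.87 CPM in GFRA1neg (1.30 ± 0.16 log2, edgeR adjusted p = 2.1e-05). Grb10, an adaptor that binds receptor kinases, was at 44.6 ± 8.10 CPM in GFRA1pos, against 103 ± 8.55 CPM in GFRA1neg (-1.21 ± 0.18 log2, adjusted p = 0.0001). Nras averaged 206 ± 23.6 CPM in KITpos, against 184 ± 20.6 CPM in GFRA1neg, and did not pass (0.16 ± 0.11 log2, adjusted p = 0.25).

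Genes reported to respond to GDNF or FGF in cultured spermatogonia or other cells were called mostly in 1 direction in each comparison. The list was chosen with earlier results of these data known, so its counts are a description and no independent support. Of 25 tested, 20 were higher and 2 lower in GFRA1pos than in GFRA1neg, where 7.3% of all genes were called higher, and the list's median was 1.94 log2 against -0.04 for all genes. Egr2, an immediate early transcription factor, was at 216 ± 22.3 CPM in GFRA1pos, against 11 ± 1.93 CPM in GFRA1neg (SD; 4.3 ± 0.23 log2, edgeR adjusted p = 1.2e-09). Etv5, an ETS factor needed for stem cell self-renewal in the mouse testis, was at 423 ± 29.2 CPM in GFRA1pos, against 33.3 ± 5.99 CPM in GFRA1neg (3.67 ± 0.33 log2, adjusted p = 4.1e-07). Dusp6, a phosphatase that dampens ERK, was at 121 ± 10.0 CPM in GFRA1pos, against 9.82 ± 2.35 CPM in GFRA1neg (3.63 ± 0.30 log2, adjusted p = 2e-07). The 2 lower genes were Egr4, at -0.94 ± 0.22 log2 (adjusted p = 0.0073), and Mycn, at -1.06 ± 0.18 (adjusted p = 0.00044), both named after their values were seen.

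In KITpos, 17 of the 25 were lower and 0 higher than in GFRA1neg, where 23.0% of all genes were lower (median -1.64, all genes 0.03). At an unadjusted p under 0.05, 1 was higher, DESeq2 called 1 higher, and limma voom called 0. Egr1 was at 14.2 ± 3.42 CPM in KITpos, against 273 ± 38.0 CPM in GFRA1neg (SD; -4.25 ± 0.18 log2, edgeR adjusted p = 3.3e-12). All 25 were lower in KITpos than in GFRA1pos (median -3.69, all genes 0.07; 23.7% of all genes were lower). In P6gonocyte 16 were lower and 1, Mycn, named after its value was seen, was higher than in GFRA1pos (median -1.15, all genes -0.05), where 21.9% of all genes were lower. Leaving out single libraries moved the count of 16 to between 11 and 18, and it was 11 without P6gonocyte replicate 2. P6gonocyte had 14 higher and 2 lower than GFRA1neg (median 0.94, all genes -0.09), where 18.8% of all genes were higher; without P6gonocyte replicate 2 the counts were 13 and 2. The lower 2 were Egr1, at -0.88 ± 0.17 log2 (adjusted p = 0.00044), and Egr4, at -1.67 ± 0.23 (adjusted p = 2.6e-05), named after their values were seen.

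Among the 39 other receptor tyrosine kinase genes tested, 8 were higher and 4 lower in GFRA1pos than in GFRA1neg (median 0.28, all genes -0.04; 7.3% of all genes higher and 6.84% lower). Leaving out single libraries gave 6 to 9 higher and 2 to 4 lower, with 2 lower without GFRA1pos replicate 1, 2 or 4, and also without the 4 libraries highest in spermatid markers. Epha2, an ephrin receptor, was at 49.8 ± 8.48 CPM in GFRA1pos, against 3.05 ± 1.59 CPM in GFRA1neg (SD; 4.02 ± 0.48 log2, edgeR adjusted p = 1.3e-05). In KITpos 5 were higher and 12 lower than in GFRA1neg (median -0.57, all genes 0.03; 22.1% and 23.0% of all genes), with 5 to 6 and 11 to 14 when single libraries were left out. The list includes Kit, on which these groups were sorted, and Kit was 1 of the 5 higher (3.67 ± 0.28 log2, edgeR adjusted p = 6.9e-09). That call is what the Kit gate selects. Igf1r, a receptor of insulin-like growth factors, was at 166 ± 39.0 CPM in KITpos, against 621 ± 41.5 CPM in GFRA1neg (-1.90 ± 0.15 log2, adjusted p = 1.2e-08). Met, the receptor of hepatocyte growth factor, was at 73.4 ± 7.56 CPM in KITpos, against 22.9 ± 2.55 CPM in GFRA1neg (1.68 ± 0.14 log2, adjusted p = 2.8e-08).

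The genes whose levels were most like those of a receptor gene are given as a description: Pearson's r of log2(CPM + 1) over the 17 libraries, among 12275 genes, in libraries that share 4 groups. For Gfra1 they were Tagln2 (r = 0.99), Gm10007 (0.99) and Egr2 (0.988). For Ret they were Il17rd (0.993), an FGF signalling inhibitor, Helz (0.99) and Shisa5 (0.985). Ret itself ranked 217th for Gfra1 (0.893), and Fgfr1 ranked 343rd for Ret (0.906). For Fgfr1 they were Dlst, Kpna6 and Sbk1 (0.966 to 0.968), and for Fgfr3 they included Xylb (0.923) and 4933427D06Rik (0.906), with r = -0.716 between Fgfr3 and Fgfr1. For Gfra2 they were Usp50, Tmc5 and Sh3d21 (0.83 to 0.842).

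In the GENCODE M21 annotation, exons of Gfra1, Fgfr1 and Fgfr3 overlap a gene on the opposite strand (Gm16277, Gm16159 and G630022F23Rik), and exons of Gfra4 and Fgfr2 overlap Mir6973b and Ctbp2 on the same strand. Over the overlapping stretches, strand cannot separate reads of Gfra4 and Fgfr2 from those of their same-strand partners. For the opposite-strand partners, the use of strand in the counting is not given in the sources used here. Reads of those stretches therefore cannot be assigned to the receptor gene or to its partner.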

How the data were processed

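RNA of sorted testis cells (5 to 10 ng per sample) was amplified with NuGEN Ovation V2, made into TruSeq V2 libraries and read as 101 bp paired ends on an Illumina HiSeq2500, per the labels' protocols. The authors deposited a table of raw whole-number counts per gene. Tools listed without a role in the submitters' processing notes are TopHat2 2.0.4, Bowtie2 2.0.0-6, Bowtie, Trim Galore, DESeq and DESeq2, with build mm9; which program and annotation made the counts is not given in the sources used here. Rows are Entrez numbers, and 23930 of 24013 were matched to symbols with a RefSeq table of GRCm38.p6. The column taken as GFRA1pos replicate 1 is spelled with GFP for GFR. A row without a symbol took up to 29.9% of a library's counts.

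The test was edgeR's quasi-likelihood F-test (edgeR 4.0.16, R 4.3.3; all 17 libraries, 1 mean per group, TMM scaling, filterByExpr, Benjamini-Hochberg adjustment over 15451 genes, threshold 0.05); fold changes are the first-named group over the second. Scripts were checked on simulated counts. Lengths are GENCODE M21 exon unions. Ratios used exact permutation tests. Replicates differed beyond counting error in all 28 pairs (chi-square per degree of freedom 4.13 to 51.0). The receptors and lists were chosen with earlier results of these data known. Named list genes were, per comparison, up to 4 with the smallest adjusted p past the threshold and up to 2 of the highest CPM not past it. Alternatives were RLE and upper-quartile scaling, other count filters, leaving out rows over 5% of counts, DESeq2 1.42.0, limma 3.58.1 (voom), fits of 2 groups, a replicate block and leaving out each library. Replicate numbers were not taken to pair samples. One gene that the likeness rule names is not reported here.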

Additional observations from a re-analysis of the deposited data

Results flagged for a closer look

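Of 44 sets of 4 or 5 libraries (receptor and ratio values by group), 2 had an end library far from the rest, and about 1 in 20 sets is flagged so by chance. Gfra1 was at 118 CPM in P6gonocyte replicate 2, against 151 to 157 CPM in the other P6gonocyte libraries. That library also had the highest summed Sertoli markers, 237 CPM, against 72.6 to 81.9 CPM in the other P6gonocyte libraries. It had the lowest Pou5f1 of its group as well, 5.53 CPM, against 23 to 26.3 CPM. The part of these in the Gfra1 value was not tested. Fgfr3 was at 12.7 CPM in KITpos replicate 1, against 19.2 to 20.4 CPM in the other KITpos libraries. That library had the highest summed spermatid markers of its group, 955 CPM, and the highest Leydig markers, 98.9 CPM, and their part in the Fgfr3 value was not tested.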

How the results depend on the processing

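No direction of a called value reversed under any alternative. All 324 recomputed counts of genes called kept within 1.5 times their main value, and of 1296 recomputed receptor differences 1272 kept their direction and side of the threshold, 11 came past it and 13 fell short. The number of receptors called moved by over 1.5 times in 1 comparison, P6gonocyte against GFRA1neg, to 2 receptors, against 1 receptor in the reported fit, with limma voom, only the 2 groups, and the replicate block; the second was Ret. Leaving out single libraries gave 2 to 3 receptors called for GFRA1pos against GFRA1neg, 4 to 5 for KITpos against GFRA1neg and against GFRA1pos, 5 to 6 for P6gonocyte against KITpos, and no change for P6gonocyte against GFRA1pos or GFRA1neg. Of gene list counts, 1887 of 1944 kept within 1.5 times. Scaling by RLE or upper quartile shifted the median log2 fold change of all genes by at most 0.055. Correlations of same-numbered deviations were 0.44, 0.49, 0.29 and 0.07 for GFRA1pos and GFRA1neg and -0.42 to 0.21 elsewhere; with 1 pair of the first under 0.1, numbers were not taken to pair samples. In both GFRA1pos and GFRA1neg, replicate 2 was highest in spermatid markers. Of all 17 libraries, 8 correlated best with their own number, and the edgeR replicate block changed no receptor call in GFRA1pos against GFRA1neg, lost 1 receptor call, Fgfr2 in KITpos against GFRA1neg (-1.15, adjusted p = 0.074), and gained Ret in P6gonocyte against GFRA1neg (0.39, adjusted p = 0.044). For the count ratios the paired differences (replicate block) were 2.69 (GFRA1pos over GFRA1neg), 1.62 (KITpos over GFRA1neg), -0.41 (P6gonocyte over GFRA1pos) and 2.28 (P6gonocyte over GFRA1neg) for Gfra1 to Ret, all dependent on the GFRA1 gate, and 2.42 (KITpos over GFRA1neg), 1.90 (KITpos over GFRA1pos) and -2.01 (P6gonocyte over KITpos) for Fgfr3 to Fgfr1, each with an adjusted p of 0.21 by exact permutation, since 4 pairs cannot pass. Without the 4 libraries highest in spermatid markers, an alternative chosen after seeing the data, they were 2.79, 2.10, -0.41, 2.38, 2.61, 1.94 and -2.13 in the same order, with adjusted p of 0.11 to 0.17 from fewer samples. Leaving out 1 library at a time gave Gfra1 to Ret log2 differences of 2.64 to 2.78 for GFRA1pos over GFRA1neg, 1.62 to 2.53 for KITpos over GFRA1neg and 2.24 to 2.38 for P6gonocyte over GFRA1neg. The Fgfr3 to Fgfr1 differences were 2.34 to 2.84 for KITpos over GFRA1neg, 0.26 to 0.76 for GFRA1pos over GFRA1neg and 0.15 to 0.65 for P6gonocyte over GFRA1neg; without GFRA1neg replicate 1 the last 2 were 0.76 and 0.65, both at an adjusted p of 0.043. The shallower P6gonocyte and KITpos libraries limit what can be said of Gfra2, Fgfr2 and Fgfr4.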
